A study of Mus musculus with 4 samples.

Results

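The transcripts of 10 transcription factors that hold mouse embryonic stem cells (mESCs) in the naive state were followed into cells that lack SNF2L. The genes were chosen by name, with earlier results of these data known. They are Nanog, Klf2, Klf4, Klf5, Esrrb, Tfcp2l1, Tbx3, Prdm14, Zfp42 and Nr0b1, and they are 10 of 24594 genes in the count table. All 10 passed the filter on low counts, which left 13840 genes to be tested. SNF2L is the product of Smarca1 and an ATPase of the imitation switch (ISWI) family of chromatin remodelers.

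The data are 4 poly(A) RNA-seq libraries of mESCs of 129S6/SvEvTac background, 2 from untreated wild-type (WT) cells and 2 from untreated Snf2l knockout cells, all handled as a single batch. Per the methods of the study, the cells grew on gelatin with serum and leukemia inhibitory factor (LIF), and a mutant line of this kind is 1 clone picked after Cas9 editing. Genotype and clone therefore cannot be told apart, and p-values measure the spread between libraries of 1 line per genotype. Library totals lay between 13771642 and 15608803 counts, and Smarca1 fell to 5.06% of its WT level in the knockout (-4.30 on the log2 scale, SE 0.159, edgeR adjusted p = 2.65e-10).

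In serum and LIF, naive pluripotency rests on a web of transcription factors that activate each other and share enhancers with OCT4 and SOX2. LIF acts through STAT3 on Klf4 and Tfcp2l1, PI3K signaling supports Tbx3, and Wnt signaling relieves the repressor TCF7L1 at Esrrb. The factors are partly redundant, so that cells tolerate the loss of many single members, and they are switched off together when cells move toward the formative and primed states.

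Cells of both genotypes carried the transcripts that define mESCs. Pou5f1, which codes for OCT4, Sox2 and Sall4 had at least 5447 counts in every library. Klf2 and Zfp42 lie on chromosome 8, and their values are given beside those of that chromosome. The median log2 fold change (knockout over WT) of the 754 tested chromosome 8 genes was -0.51, and 60.1% of them were called lower, whereas the median over all tested genes was 0.0002.

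The proximal promoters of Zfp42, Klf2, Klf4 and Nanog are shown because these genes carry the main contrasts of the data. Zfp42 and Klf2 are the pair on chromosome 8, Klf4 was higher in the knockout, and Nanog had nearly equal means. Each run is the 250 bases before the RefSeq start on GRCm38.p6, which is the assembly of mm10, read 5′ to 3′ on the strand of the gene. Capitals mark matches, on either strand, to TTTGCAT, a stretch of the octamer that POU factors such as OCT4 bind, and to CCACCC and CCACACCC, forms of the CACCC box that KLF proteins bind. Zfp42 is shown for chr8:43307010-43307259 (minus strand), Klf2 for chr8:72318812-72319061 (plus strand), Klf4 for chr4:55532476-55532725 (minus strand) and Nanog for chr6:122707239-122707488 (plus strand).
Zfp42: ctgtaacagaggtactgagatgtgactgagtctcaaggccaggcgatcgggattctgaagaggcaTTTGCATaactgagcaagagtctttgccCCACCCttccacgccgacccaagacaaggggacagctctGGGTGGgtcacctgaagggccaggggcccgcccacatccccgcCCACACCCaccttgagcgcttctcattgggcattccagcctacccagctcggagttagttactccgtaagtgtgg
Klf2: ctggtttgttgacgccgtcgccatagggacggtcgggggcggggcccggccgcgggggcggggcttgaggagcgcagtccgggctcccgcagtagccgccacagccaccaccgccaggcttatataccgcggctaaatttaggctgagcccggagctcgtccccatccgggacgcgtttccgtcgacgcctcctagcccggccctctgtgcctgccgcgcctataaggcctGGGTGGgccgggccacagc
Klf4: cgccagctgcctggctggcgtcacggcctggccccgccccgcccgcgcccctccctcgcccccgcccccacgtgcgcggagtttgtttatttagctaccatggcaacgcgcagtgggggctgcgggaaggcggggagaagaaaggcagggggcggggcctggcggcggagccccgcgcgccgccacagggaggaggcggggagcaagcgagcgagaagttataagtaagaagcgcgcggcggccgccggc
Nanog: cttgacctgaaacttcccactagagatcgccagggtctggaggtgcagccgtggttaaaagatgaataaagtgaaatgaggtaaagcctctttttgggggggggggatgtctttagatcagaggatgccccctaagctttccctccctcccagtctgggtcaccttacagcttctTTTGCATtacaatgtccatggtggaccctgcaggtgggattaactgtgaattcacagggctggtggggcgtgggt

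TTTGCAT was found in the Zfp42 window, beginning 185 bases before the start, and in the Nanog window, 75 bases before it. It occurs in 4.12% of the 32851 RefSeq promoter windows of this length. CCACCC was found on each strand of the Zfp42 window and a single time in those of Klf2, Esrrb and Nr0b1, and it occurs in 28.1% of windows. CCACACCC, which does not contain CCACCC, was found in Zfp42 alone among the members with a window and occurs in 3.20% of windows. The windows of Klf4 and Tfcp2l1 held no match. Nanog and Esrrb have 2 RefSeq starts each and the window of the first is described here, while in both genes the window of the second held CCACCC. RefSeq windows were matched for 7 of the 10 members, not for Klf5, Tbx3 and Prdm14, and a match is a description of letters and not of a bound site.

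The level of each factor in WT cells was examined first. Levels are given as CPM, the counts of a gene scaled to a common library size, per kb of gene length, which allows genes to be compared. Zfp42, which codes for the zinc finger protein REX1 and is the customary marker of naive cells, stood at the top with 270.3 ± 6.09 CPM per kb (SD, n = 2, as for all values of a genotype). Nanog, the homeodomain factor that stabilizes self-renewal, followed with 207 ± 7.08. Klf2, a KLF zinc finger factor, had 124 ± 3.88, and Esrrb, an orphan nuclear receptor, had 96.0 ± 0.481. Each of these 4 genes lay above between 96.7% (Esrrb) and 99.3% (Zfp42) of all tested genes, whose median was 5.75 CPM per kb.

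Nr0b1, which codes for DAX1, a nuclear receptor without a DNA-binding domain of the usual kind, had 56.0 ± 0.742 CPM per kb in WT cells. Tfcp2l1, a grainyhead-like factor downstream of STAT3, had 40.5 ± 5.26, and Klf4 had 40.2 ± 0.349. Klf5 had 29.2 ± 1.29. At the foot of the order stood Prdm14, which represses FGF signaling genes and DNA methyltransferase genes, with 11.2 ± 0.455, and Tbx3, a T-box factor, with 9.20 ± 0.176.

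The levels in WT cells thus spanned 29.4-fold from Zfp42 to Tbx3. Tfcp2l1 and Klf4 were the sole neighbours in this order whose WT libraries overlapped, and they changed places between these libraries. The other neighbours kept their order in both WT libraries, with steps between 1.21-fold and 2.62-fold. In the means of the knockout libraries 2 pairs of neighbours changed places. Nanog stood above Zfp42 (207 ± 5.58 against 179 ± 6.13 CPM per kb), and Tbx3 stood above Prdm14 (14.6 ± 1.60 against 12.3 ± 0.566). Both exchanges were present in each knockout library.

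**Figure D1:**
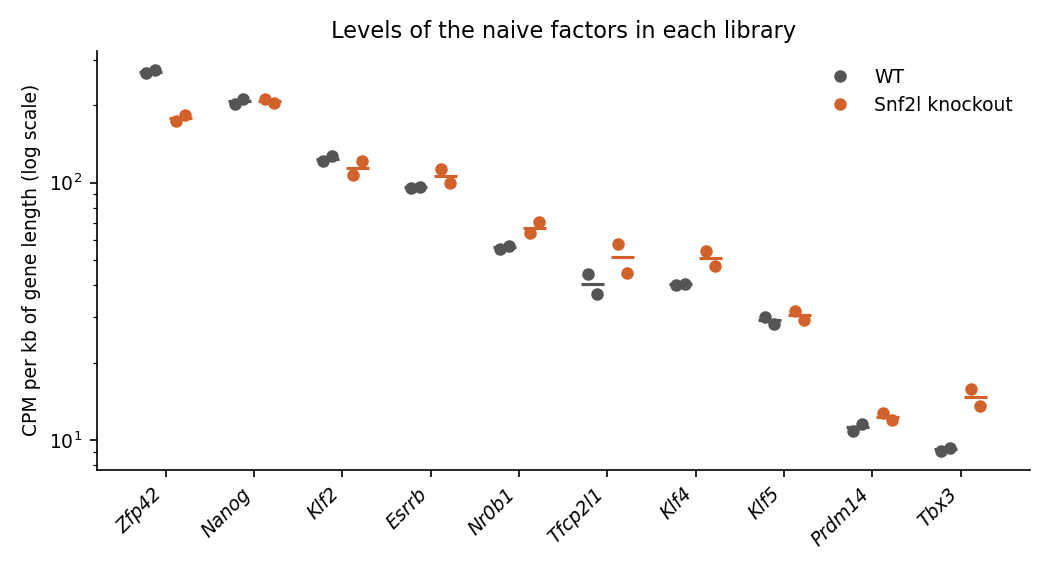
Levels of the 10 naive factors in CPM per kb of gene length on a log axis, ordered by their WT mean. Points are single libraries of WT (grey) and Snf2l knockout (orange) cells and lines are means of 2 libraries. Zfp42 is the highest in WT at 270.3 and drops below Nanog in the knockout, while Tbx3, the lowest in WT at 9.20, rises above Prdm14.

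Next, each factor was compared between genotypes. A gene was called when its adjusted p-value in edgeR's quasi-likelihood test (Benjamini-Hochberg over all genes tested) was under 0.05. Of the 10 factors, 1 was called lower (Zfp42), against 5.21% of all tested genes, and 2 were called higher (Klf4 and Tbx3), against 4.0%. None met the rule of the study for a differentially expressed gene, an adjusted p-value under 0.01 with more than a 2-fold change, which 0.990% of tested genes met. DESeq2 also placed 0 of the 10 past that rule, and at an unadjusted p-value under 0.05 in edgeR 5 of the 10 differed, against 22.2% of all tested genes.

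The fold changes leaned upward. Of the 10 factors 8 had a log2 fold change above 0, including all 8 that lie off chromosome 8. Among all tested genes, those of chromosome 8 included, 6927 of 13840 did. Nanog, counted among the 8, stood at 0.00056 and changed sign in 3 of 14 alternatives. In 6 factors both knockout libraries lay above both WT libraries, which was so for 25.2% of tested genes, and in 2 factors they lay below, which was so for 25.3%. The median log2 fold change of the 10 factors was 0.14, and it lay between 0.072 and 0.18 with 1 library left out. The members share the libraries and regulate each other, so these counts describe the list and carry no test.

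**Figure D2:**
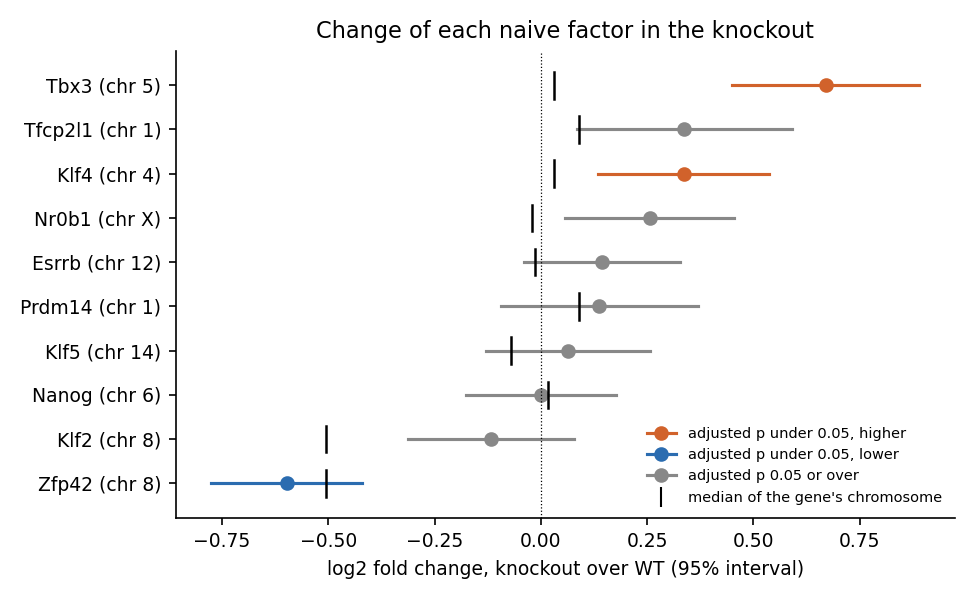
Log2 fold change of each factor in the knockout over WT, with its 95% interval, the chromosome of the gene in brackets and a black tick at the median of that chromosome. Tbx3 (0.67) and Klf4 (0.34) were called higher and Zfp42 (-0.60) was called lower. Klf2 (-0.12) lies to the right of the chromosome 8 median of -0.51, and Zfp42 lies close to it.

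Tbx3 (Entrez gene 21386, chromosome 5, 119670534 to 119684724) showed the largest rise among the 10 factors. TBX3 acts in the PI3K branch of the network and is also known for a role in the step toward extraembryonic endoderm. WT cells gave 663 and 767 reads and knockout cells 1328 and 1114, or 48.7 and 50.04 CPM against 84.6 and 72.5 CPM. The genotypes did not overlap, and the gap between them was wider than the spread within either. The mean rose from 49.4 ± 0.945 to 78.6 ± 8.59 CPM, which is 0.67 on the log2 scale (SE 0.103, edgeR adjusted p = 8.18e-04). The call held under all 14 alternatives, with log2 fold changes between 0.56 and 0.78. The antisense gene Tbx3os1 overlaps its 5′ end over 697 bp in GENCODE M21, and the strand setting of the counting is not stated, so that reads of this stretch cannot be assigned to a strand.

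Some markers of primitive endoderm were higher beside Tbx3. Of 7 such genes 6 were tested, and Gata4, Gata6, Dab2 and Pdgfra were called higher, whereas Sox17 and Sox7 were not called. Over all tested genes, 4.0% were called higher and 5.21% lower. At an unadjusted p-value under 0.05 in edgeR 5 of the 6 were higher, against 22.2% of all tested genes in either direction. Counts were low, at 14 to 45 per library for Gata6, 20 to 66 for Pdgfra and 41 to 83 for Gata4. The summed level of the 7 genes was 16.2 to 17.3 CPM in WT and 27.3 to 27.7 CPM in the knockout, and Foxa2 had at most 7 counts in any library. Of the 7 genes DESeq2 called 1 higher. Of 8 fibroblast genes 6 were tested. Col1a1 and Col3a1 were called higher in edgeR and DESeq2 called 2 higher, with 4 higher at an unadjusted p-value under 0.05 in edgeR. The summed level of the 8 genes was 14.1 to 16.1 CPM in WT and 28.7 to 29.7 CPM in the knockout, and Lum had 0 counts in every library. Of 5 trophoblast genes 4 were tested and 0 were called in edgeR or DESeq2, with 1 at an unadjusted p-value under 0.05 in edgeR and summed levels of 59.7 to 69.9 CPM in WT and 67.4 to 70.8 CPM in the knockout. Of 5 neural genes 4 were tested, of which Neurod1 was called higher and Pax6, Nes and Sox1 were called lower in edgeR, while DESeq2 called 1 higher and 2 lower. Sox1 lies on chromosome 8 and stood at -0.59 (SE 0.168), near the median of that chromosome. The summed level of the 5 neural genes was 82.6 to 84.6 CPM in WT and 56.2 to 57.7 CPM in the knockout. The part of such cells in the rise of Tbx3 was not tested. In bulk RNA, a change in the number of cells of a type and a change in RNA per cell cannot be told apart.

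Klf4 (Entrez gene 16600, chromosome 4, 55527137 to 55532475), a target of LIF and STAT3 signaling and one of the classical reprogramming factors, was called higher as well. Its level was 122 and 123 CPM in the WT libraries and 165 and 145 CPM in the knockout libraries. The WT libraries were almost equal and both knockout libraries lay above them. Mean levels were 123 ± 1.06 and 155 ± 14.3 CPM, which is a log2 difference of 0.34 (SE 0.0941, edgeR adjusted p = 0.0359). This call was close to the threshold and was lost in 6 of 14 alternatives. Among these were DESeq2 (adjusted p = 0.0543) and the fits without WT replicate 1, WT replicate 2 or knockout replicate 1 (adjusted p between 0.142 and 0.241). Over all 14 alternatives the log2 fold change stayed between 0.24 and 0.43.

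Zfp42 (Entrez gene 22702, chromosome 8, 43295067 to 43307009) was the sole factor called lower. WT cells gave 6811 and 7917 reads and knockout cells 5141 and 5286, or 500.3 and 517 CPM against 328 and 344 CPM. The libraries of each genotype lay close together and the genotypes were far apart. The mean fell from 508 ± 11.4 to 336 ± 11.5 CPM, or to 66.0% of the WT level (-0.60 on the log2 scale, SE 0.0829, edgeR adjusted p = 3.80e-04). Zfp42 kept its call in 13 of 14 alternatives. The exception was the fit in which the chromosome 8 shift was removed, where its log2 fold change was -0.09 (SE 0.0826, adjusted p = 0.598).

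The chromosome 8 shift was also visible around Zfp42. Of the 5 tested genes on either side of it, 9 of 10 had negative log2 fold changes and 5 were called lower, with a median of -0.61. On 1 side AY512931, Fam149a, Tlr3 and Sorbs2 had low levels, 0.43 to 1.57 CPM in WT. Their SEs were 0.36 to 0.62 and none of them was called. The closest neighbours, Triml2 and Triml1, stood at -0.62 (SE 0.0993) and -0.61 (SE 0.10). Within the chromosome, 30.5% of the tested genes had a lower log2 fold change than Zfp42.

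Klf2 (Entrez gene 16598, chromosome 8, 72319062 to 72321654) lies on the same chromosome and had another value. WT cells gave 3047 and 3586 reads and knockout cells 3114 and 3434, or 224 and 234 CPM against 198 and 223 CPM. Knockout replicate 2 was almost level with WT replicate 1, although neither knockout library reached either WT library. Mean levels were 229 ± 7.16 and 211 ± 17.7 CPM. The log2 fold change was -0.12 (SE 0.0912, 95% interval -0.31 to 0.077, adjusted p = 0.500 in edgeR), so that no difference was detected.

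The 5 tested genes on either side of Klf2 stood lower than Klf2 itself. All 10 had negative log2 fold changes, from -0.61 to -0.22 with a median of -0.45, and 7 were called lower. The adjoining Ap1m1 and Eps15l1 stood at -0.61 (SE 0.0928) and -0.44 (SE 0.0954). On the whole chromosome 90.6% of the tested genes had a lower log2 fold change than Klf2. With the median shift of chromosome 8 removed, Klf2 was higher by 0.39 (SE 0.0913, edgeR adjusted p = 0.0242), and 3.22% of all tested genes were called higher and 1.57% lower in that fit. This value is relative to the other genes of chromosome 8 and not to the WT level. Its direction held in each of 8 further settings, but the call was lost without WT replicate 1 (adjusted p = 0.218), WT replicate 2 (0.117) or knockout replicate 2 (0.0865).

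**Figure D3:**
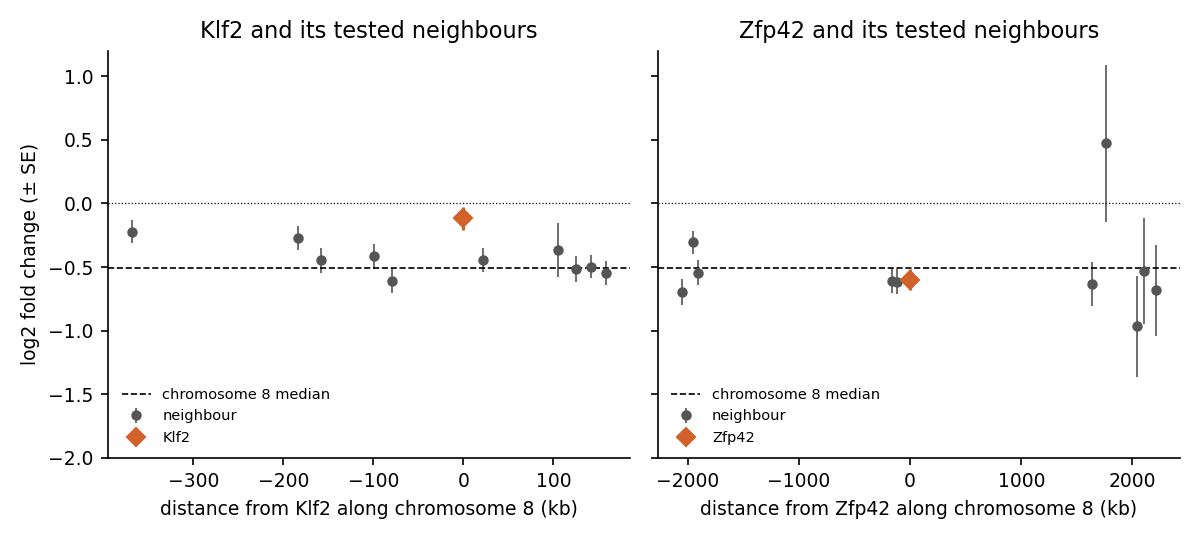
Log2 fold change (± SE) of Klf2 (left) and Zfp42 (right) and of the 5 tested genes on either side of each, against the distance along chromosome 8 in kb. Diamonds are the naive factors, circles the neighbours, and the dashed line is the chromosome 8 median of -0.51. Klf2 lies above all 10 neighbours, whereas Zfp42 lies among those next to it.

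Klf2, Klf4 and Klf5 are paralogues with overlapping roles in self-renewal, and depletion of all of them together makes mESCs differentiate. Klf5 (Entrez gene 12224, chromosome 14, 99298691 to 99313412) had 157 and 147 CPM in the WT libraries and 165 and 153 CPM in the knockout libraries. The genotypes overlapped, and the log2 fold change was 0.064 (SE 0.0906, 95% interval -0.13 to 0.26, edgeR adjusted p = 0.747). The summed level of the 3 genes was 191 and 195 CPM per kb in the WT libraries and 193 and 198 CPM per kb in the knockout libraries. The genotypes thus overlapped in the sum per kb. In CPM without division by gene length they did not, and both knockout sums lay above both WT sums. Within it, the share of Klf2 was 64.1% ± 1.03 in WT and 58.4% ± 3.95 in the knockout, and that of Klf4 was 20.8% ± 0.135 and 26.0% ± 2.82. No test was run on these shares, and in both cases the libraries of the genotypes did not overlap. Among all tested genes both knockout libraries lay above both WT libraries in 25.2% and below them in 25.3%. The shares are parts of 1 sum, so that of Klf2 and that of Klf4 are not separate observations.

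**Figure D4:**
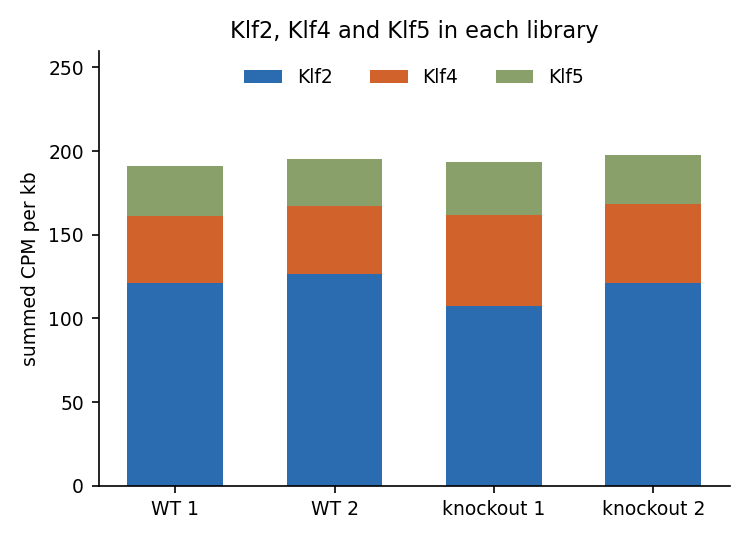
Summed level of Klf2, Klf4 and Klf5 in CPM per kb in each of the 4 libraries, as stacked bars. The sums lie between 191 and 198, and the Klf4 part is wider in both knockout libraries (26.0% on average) than in WT (20.8%).

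Nanog (Entrez gene 71950, chromosome 6, 122707489 to 122714633) had the same mean level in both genotypes. It had 453 and 476 CPM in the WT libraries and 473 and 456 CPM in the knockout libraries, and the values of the genotypes interleaved. The means were 464 ± 15.9 and 465 ± 12.5 CPM. The log2 fold change was 0.00056 with an SE of 0.0823 (edgeR adjusted p = 0.998), and its 95% interval ran from -0.18 to 0.18.

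Esrrb (Entrez gene 26380, chromosome 12, 86361117 to 86521628) was the most abundant of the 10 factors before correction for length. It had 579 and 583 CPM in the WT libraries and 681 and 602 CPM in the knockout libraries. Both knockout libraries were higher, but they differed from each other by more than the nearer of them differed from WT. The log2 fold change was 0.14 (SE 0.0859, 95% interval -0.040 to 0.33, edgeR adjusted p = 0.364).

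Tfcp2l1 (Entrez gene 81879, chromosome 1, 118627923 to 118685168) varied most between replicates. It had 417 and 347 CPM in the WT libraries and 547 and 420 CPM in the knockout libraries. Knockout replicate 2 was nearly equal to WT replicate 1, and knockout replicate 1 stood apart above the other libraries. The log2 fold change was 0.34, as large as that of Klf4, with an SE of 0.118 and an edgeR adjusted p-value of 0.0956. The median of chromosome 1 was 0.090. Relative to the median of its chromosome Tfcp2l1 stood at 0.25 and Klf4 at 0.30. The fold change of Tfcp2l1 depended on single libraries. The adjusted p-value was 0.0235 without WT replicate 1 and 1.01e-05 without knockout replicate 2, and without knockout replicate 1 the log2 fold change was 0.14 with an adjusted p-value of 0.414.

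Nr0b1 (Entrez gene 11614, chromosome X, 86191775 to 86195947) had 100.3 and 102 CPM in the WT libraries and 115 and 127 CPM in the knockout libraries. Both knockout libraries were higher, with a log2 fold change of 0.26 (SE 0.0932, 95% interval 0.057 to 0.46), but the adjusted p-value in edgeR was 0.110. Without knockout replicate 1 it was 0.0319.

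Prdm14 (Entrez gene 383491, chromosome 1, 13113428 to 13127163) was the least abundant factor before correction for length. It had 27.8 and 29.5 CPM in the WT libraries and 32.6 and 30.5 CPM in the knockout libraries. The genotypes did not overlap, yet the log2 fold change of 0.14 (SE 0.109, 95% interval -0.095 to 0.37, edgeR adjusted p = 0.511) was within its error. It was also close to the median of chromosome 1, 0.090.

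The signals that feed the naive factors were then examined at the level of their genes. Of 12 genes of the LIF, BMP and Wnt branches, all were tested and 6 had log2 fold changes above 0. Of the 12, 0 were called higher in edgeR or DESeq2, and edgeR called 1 lower. Over all tested genes, edgeR called 4.0% higher and 5.21% lower. At an unadjusted p-value under 0.05 in edgeR 2 were higher and 2 lower, against 22.2% of all tested genes in either direction. Stat3, the transcription factor activated by LIF, stood at 0.040 (SE 0.0953, adjusted p = 0.859). Socs3, its feedback inhibitor, stood at 0.25 (SE 0.0878, adjusted p = 0.0958) and Il6st, the receptor subunit GP130, at 0.28 (SE 0.0980, adjusted p = 0.0911). The 1 gene called lower was Smad1, a transducer of BMP signals, at -0.46 (SE 0.127, adjusted p = 0.0333). It lies on chromosome 8, and with the shift of that chromosome removed it stood at 0.044 (adjusted p = 0.895).

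The core factors and other genes of the naive state were compared in the same way. Of 5 core genes 0 were called in edgeR or DESeq2. Before adjustment 1 of them (higher) passed 0.05 in edgeR, as did 22.2% of all tested genes in either direction. Pou5f1 stood at 0.064 (SE 0.0842) and Sox2 at -0.044 (SE 0.0815). Among 9 other naive-state genes 7 had log2 fold changes below 0. In edgeR 1 was called higher and 2 were called lower, against 4.0% and 5.21% of all tested genes. Gbx2, a homeobox target of STAT3, rose from 80.5 to 128 CPM (log2 fold change 0.67, SE 0.0904, edgeR adjusted p = 2.96e-04). Dppa3, which codes for the maternal factor STELLA, fell from 19.1 to 10.4 CPM (-0.88, SE 0.148, adjusted p = 1.43e-03), and Tcl1, a coactivator of AKT, fell from 63.5 to 45.5 CPM (-0.48, SE 0.111, adjusted p = 0.0121). Gbx2 and Dppa3 kept their calls in all 14 alternatives, and Tcl1 lost its call without WT replicate 1 (adjusted p = 0.0580).

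Genes of the pathways that govern the exit from the naive state, including FGF and ERK signaling with its feedback inhibitors, followed. Of 13 such genes 5 had log2 fold changes above 0 and 8 below. At an unadjusted p-value under 0.05 in edgeR 2 were higher and 3 lower, against 22.2% of all tested genes in either direction. Over all tested genes, edgeR called 4.0% higher and 5.21% lower. Of the 13, 0 were called higher in edgeR or DESeq2, and 1 was called lower. This was Fgfr1, an FGF receptor, at -0.58 (SE 0.0922, edgeR adjusted p = 9.87e-04), which lies on chromosome 8 and stood at -0.07 (adjusted p = 0.725) with the shift removed. Tcf7l1 was at -0.03 (SE 0.0934). Etv5, a transcriptional target of ERK, was at 0.26 (SE 0.0868, adjusted p = 0.0844).

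Several genes of the formative and primed states were higher in the knockout. Of 10 such genes 9 were tested and 8 had log2 fold changes above 0, as had 6927 of all 13840 tested genes. In edgeR 4 were called higher, against 4.0% of all tested genes, and 1 lower, against 5.21%. DESeq2 called 3 higher and 1 lower. The median log2 fold change was 0.13, and Dnmt3b (0.039, SE 0.0894) and Cdh2 (0.080, SE 0.215) were not called. Lef1, a nuclear effector of Wnt signaling, rose from 5.06 to 19.9 CPM (log2 fold change 1.97, SE 0.149, edgeR adjusted p = 1.86e-06). Pou3f1, the POU factor OCT6, rose by 0.73 (SE 0.113), Dnmt3a, a de novo DNA methyltransferase, by 0.55 (SE 0.0821) and Sox3 by 0.90 (SE 0.229). Zic2 fell by 0.92 (SE 0.129) on the log2 scale. Otx2 and Fgf5, the customary first markers of the exit from the naive state, stood at 0.13 (SE 0.103) and 0.044 (SE 0.462), and Fgf5 had at most 13 counts in any library. The calls of Lef1, Pou3f1, Dnmt3a and Zic2 held in all 14 alternatives, and that of Sox3 was lost in 4 of them, namely DESeq2 and the fits without WT replicate 1, WT replicate 2 or knockout replicate 2.

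Relatives of the 10 factors within their gene families were examined last. Of 17 relatives 13 were tested, and 6 had log2 fold changes above 0. In edgeR 0 were called higher and 1 lower, against 4.0% and 5.21% of all tested genes, and DESeq2 called 0 higher. At an unadjusted p-value under 0.05 in edgeR 0 were higher and 1 was lower, against 22.2% of all tested genes in either direction. The 1 called lower was Prdm1, which codes for BLIMP1, a factor of the germ line and a relative of Prdm14, and which fell by 0.73 (SE 0.118, edgeR adjusted p = 1.03e-03) on the log2 scale. The log2 fold changes of the tested KLF relatives lay between -0.12 (Klf3) and 0.24 (Klf15), and that of Esrra, the relative of Esrrb, was 0.16 (SE 0.151). Yy1, from which Zfp42 is derived by retroposition, had 141 CPM in both genotypes.

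For the 3 called factors, the genes with the most similar pattern over the 4 libraries were found by the root mean square distance of centred log2 CPM. They were Kalrn and Fbrs for Klf4 (distances 0.014 and 0.016), Dysf and Mbd2 for Tbx3 (both 0.028), and Zfp869 for Zfp42 (0.0032). Zfp869 also lies on chromosome 8. With 4 libraries such likeness is common. Of 9181 genes compared, 527 lay within 0.1 of Klf4, 44 of Tbx3 and 293 of Zfp42.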

How the data were processed

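Poly(A) RNA-seq was analysed in 2 WT and 2 Snf2l knockout libraries of mESCs. The authors deposited 1 table of whole-number read counts per Entrez gene with gene lengths. They had aligned reads to mm10 with QuasR and HISAT2 and counted over UCSC Known Genes, and demultiplexed with bcl2fastq 2.17 per the labels. The labels name a stranded library kit, the methods an unstranded one, and the strand setting of the counting is not given in the sources used here. Symbols and positions of 24570 of 24594 genes came from RefSeq (GRCm38.p6), and unmatched genes held at most 0.159% of a library.

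The test was that of edgeR 4.0.16 in R 4.3.3, with filterByExpr (minimum count 10), TMM, estimateDisp, and glmQLFit and glmQLFTest in their legacy form, with genotype as the only term and two-sided tests. The methods name no normalization, so TMM is an assumption. SEs came from the fold change and F statistic, and 95% intervals from the SE and total degrees of freedom. CPM used TMM-scaled library sizes, divided by gene length in kb where genes were compared. The chromosome 8 shift (median -0.51) was removed as an offset. The procedure was tested on simulated data.

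Members, lists and tests were chosen with earlier results of these data known. Named are the 10 members, related genes with an adjusted p-value under 0.05, Smarca1 and the nearest patterns (mean of at least 10 CPM). One of the nearest patterns is not reported here. Stat3, Socs3, Il6st, Pou5f1, Sox2, Sall4, Tcf7l1, Etv5, Otx2, Fgf5, Dnmt3b, Cdh2, Klf3, Klf15, Esrra, Yy1, marker genes and neighbouring genes were named after their values were seen. Alternatives were other scalings, filters and fits, DESeq2 1.42.0, the replicate block, removal of the chromosome 8 shift and each library left out.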

Additional observations from a re-analysis of the deposited data

How the results depend on the processing

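The number of factors called lower was 1 and the number called higher was 2 under RLE, upper-quartile and library-size scaling, at least 10 counts in every library, robust estimation and the edgeR 4 fit. The number called higher was 1 with every gene of at least 1 count kept, with DESeq2 and at an adjusted p-value under 0.01, because Klf4 was no longer called (adjusted p = 0.0702 and 0.0543 in the first and second of these). At the rule of the study 0 were called in either direction. With the chromosome 8 shift removed 0 were called lower, the median log2 fold change of the factors was 0.20, Klf2 turned to 0.39, Smad1 turned to 0.044 and Klf4 had an adjusted p-value of 0.0560. That setting changes the fold changes of chromosome 8 genes only. Nanog, near 0, stood at -0.00075 with every gene of at least 1 count kept, at -0.033 without WT replicate 1, at 0.034 without WT replicate 2 and at -0.025 without knockout replicate 1.

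With 1 library left out, the lone library of a genotype is assumed to vary like the others. The number called higher ranged from 1 to 3, that called lower was 1, and the median ranged from 0.072 to 0.18. Klf2 with the chromosome 8 shift removed, an alternative extended after seeing the data, ranged from 0.30 to 0.45.

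When a replicate block was fitted, 5 factors were called higher, Esrrb, Tfcp2l1 and Nr0b1 in addition, and 1 lower, in a fit that called 3471 genes on 1 residual degree of freedom. Deviations of same-numbered libraries correlated at 0.196, but with 2 pairs the samples share only a number as far as is known. Without gene length the share of Klf2 among the 3 KLF genes was 45.5% in WT and 40.2% in the knockout. Of 140 alternative values for the 10 factors, 123 kept direction and side of the threshold.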
